A study of Mus musculus with 4 samples.

Results

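Kinesins and dyneins are the motor proteins that walk along microtubules. The genes examined here are the protein-coding genes of the deposited table whose symbols name a kinesin motor (Kif or Kifc followed by a digit), a kinesin light chain (Klc1 to Klc4) or a subunit of cytoplasmic dynein (Dync or Dynl), 62 of 50600 genes in all. They were divided by role into 14 mitotic kinesins, 19 transport kinesins and light chains, 13 other kinesins and 16 dynein genes. One of the 62, Kif1bp, encodes a protein that binds kinesins and is not a motor. RNA came from the cell line Py8119, tumour cells of the mouse mammary gland (strain C57BL/6) with a mesenchymal-like phenotype, which were grown with serum and received no treatment. The compared groups were cells overexpressing Mtss1, an actin-binding membrane scaffold (libraries Mtss1 1 and Mtss1 2), and control cells (hygro 1 and hygro 2). The labels do not say which promoter drove Mtss1, whether each group was a clone or a pool, or whether its libraries came from separate cultures. The spread behind each p-value is therefore that of libraries and may be technical.

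Kinesins use ATP to move, most of them towards the plus ends of microtubules, and cytoplasmic dynein moves towards the minus ends. Mitotic kinesins build the spindle, move and align chromosomes and complete cytokinesis, and their genes are among those switched on as cells approach division. Transport kinesins carry vesicles, organelles and protein complexes, while a second dynein and the kinesin-2 motors run along the axoneme of cilia. Cytoplasmic dynein works with dynactin and with adaptors that join it to cargo.

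The libraries held 15594209 and 16656638 recovered reads for Mtss1 1 and 2, and 20617788 and 22081639 for hygro 1 and 2, so the Mtss1 libraries were the shallower ones. Values were read counts scaled by library (CPM), and 1 read was worth between 0.046 and 0.063 CPM. Mtss1 itself measured 118 and 119 CPM in the Mtss1 libraries, against 54.5 and 50.5 CPM in the hygro libraries. Of 7 markers of the mammary line, Vim, Krt8 and Krt18 were expressed, Epcam and Krt5 were at 0 in all 4 libraries, and Krt14 and Cdh1 did not exceed 0.119 CPM. Krt8 (log2 fold change -0.67 ± 0.04) and Krt18 (-0.28 ± 0.04) were lower with Mtss1 on the log2(CPM + 1) scale. Immune markers summed to at most 0.598 CPM in any library and endothelial markers to at most 1.19 CPM.

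Most promoters of the mitotic kinesins held 1 or both of 2 short words, and the sequences are shown to set those words beside the changes in RNA. The cell cycle genes homology region (CHR) is a promoter element of genes expressed late in the cell cycle, and it often lies downstream of CCAAT boxes, which bind the factor NF-Y. RefSeq windows of 300 bases (250 before and 50 after the annotated start, build GRCm38.p6) were matched by symbol to 13 of the 14 mitotic kinesins. The windows of 3 genes that rose (Kif22, Kif18b and Kif23), of 1 that rose and held neither word (Kif18a) and of the 1 that fell (Kif15) are given 5′ to 3′ on the strand of the gene, with CHR words and CCAAT words of either strand in capitals:
Kif22, chr7:127042371-127042670, minus strand: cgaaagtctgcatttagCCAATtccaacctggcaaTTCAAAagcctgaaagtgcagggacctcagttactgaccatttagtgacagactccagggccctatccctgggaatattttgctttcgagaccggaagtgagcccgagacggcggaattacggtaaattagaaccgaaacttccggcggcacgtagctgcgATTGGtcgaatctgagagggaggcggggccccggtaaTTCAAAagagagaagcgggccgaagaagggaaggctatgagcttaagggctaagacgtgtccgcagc
Kif18b, chr11:102925075-102925374, minus strand: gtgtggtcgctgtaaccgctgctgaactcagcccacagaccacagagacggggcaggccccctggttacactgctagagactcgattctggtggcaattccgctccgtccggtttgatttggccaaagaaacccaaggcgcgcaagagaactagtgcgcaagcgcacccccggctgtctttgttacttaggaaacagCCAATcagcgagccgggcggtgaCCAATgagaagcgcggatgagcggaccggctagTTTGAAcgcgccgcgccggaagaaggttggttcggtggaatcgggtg
Kif23, chr9:61946750-61947049, minus strand: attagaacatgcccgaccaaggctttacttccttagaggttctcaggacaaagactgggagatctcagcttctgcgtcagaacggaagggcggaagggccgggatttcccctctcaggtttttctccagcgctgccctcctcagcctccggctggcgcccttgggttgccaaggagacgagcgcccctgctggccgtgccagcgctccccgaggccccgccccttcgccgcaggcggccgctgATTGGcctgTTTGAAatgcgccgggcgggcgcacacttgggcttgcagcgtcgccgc
Kif18a, chr2:109280488-109280787, plus strand: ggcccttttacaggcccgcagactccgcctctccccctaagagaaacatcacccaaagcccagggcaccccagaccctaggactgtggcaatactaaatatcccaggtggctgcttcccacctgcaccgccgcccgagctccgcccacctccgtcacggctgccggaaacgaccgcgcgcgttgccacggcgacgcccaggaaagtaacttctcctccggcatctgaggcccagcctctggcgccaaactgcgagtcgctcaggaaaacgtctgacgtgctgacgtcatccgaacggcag
Kif15, chr9:122950831-122951130, plus strand: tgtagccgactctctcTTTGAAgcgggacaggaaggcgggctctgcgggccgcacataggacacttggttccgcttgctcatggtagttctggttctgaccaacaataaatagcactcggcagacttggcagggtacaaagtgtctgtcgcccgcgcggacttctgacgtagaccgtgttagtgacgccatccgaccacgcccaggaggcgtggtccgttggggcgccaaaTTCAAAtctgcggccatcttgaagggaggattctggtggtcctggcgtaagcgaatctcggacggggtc

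A CHR word, searched as TTTGAA or TTTAAA on both strands, was present in 11 of 13 mitotic kinesin promoters (84.6%), against 27.6% of the 32851 promoters in the RefSeq table. The same search found one in 1 of 15 promoters of transport kinesins (6.67%), 2 of 12 of other kinesins and 2 of 13 of dynein genes, where some genes have more than 1 annotated start. In 10 of the mitotic promoters a CHR word began within 50 bases of the start. CCAAT, also searched on both strands, was found in 9 of the 13 mitotic promoters (69.2%), against 37.4% of all promoters, and no CCAAT word overlapped a CHR word there. Both words were present in 8 of the 13 (61.5%), against 10.7% of all promoters. The CHR word was present in 7 of the 8 mitotic promoters whose gene was higher with Mtss1. It was also in the 1 whose gene was lower and in all 3 whose gene did not pass the test. Kif20a, which rose, had no promoter in the set. With so few promoters outside the first group, the counts cannot show whether the word follows the change in RNA. These counts describe letters in a window and show nothing about factor binding.

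**Figure D1:**
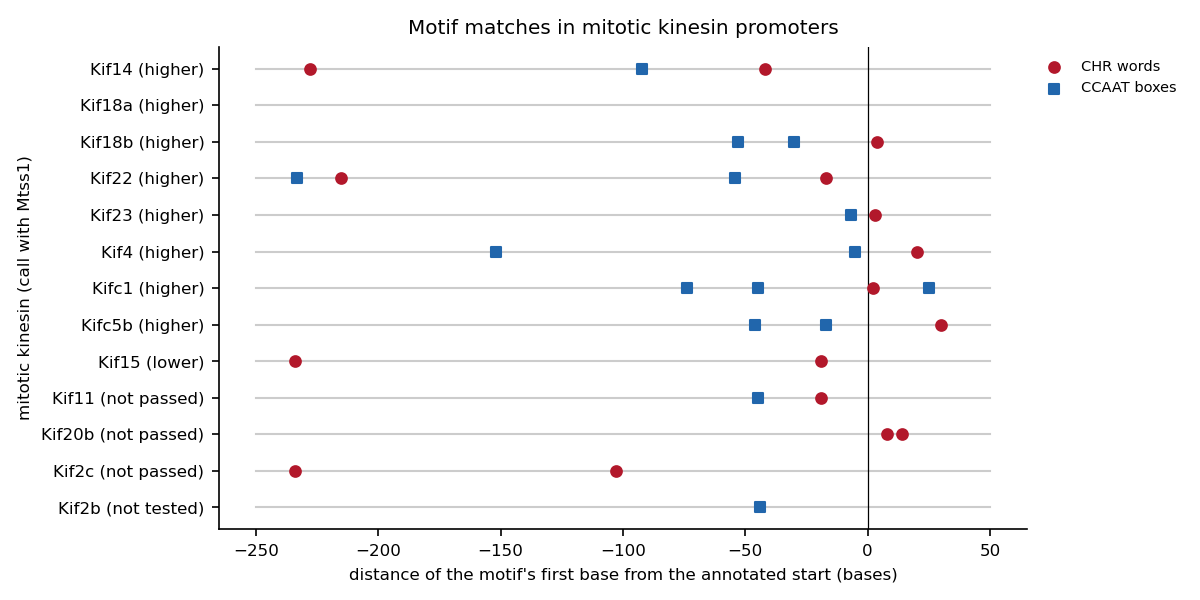
Positions of CHR words (red circles) and CCAAT words (blue squares) in the promoters of 13 mitotic kinesins, as the distance of the first base from the annotated start in bases; each grey line is 1 promoter, labelled with the call of its gene. CHR words lie in 11 of the 13 promoters, and those of Kif18a and Kif2b hold none.

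Most motor genes that changed were higher with Mtss1, by small amounts. The test was limma's, run on log2(CPM + 1) over every gene that reached 1 CPM in 2 or more libraries, and a gene was called at an adjusted p under 0.05. Among the 49 motor genes tested there were 26 that rose and 10 that fell, while 13 did not pass. Over the whole table, 66.1% of 12510 tested genes were called, 31.9% of them higher and 34.2% lower. The motor genes were called in 73.5% of cases, with 53.1% higher and 20.4% lower. Their median log2 fold change was 0.17, against -0.01 for all tested genes. Over 14 alternative settings the median of the motor genes ran from 0.12 to 0.21. The libraries of the groups did not overlap for 43 of the 49, beside 81.6% of all tested genes. Changes of 2-fold or more were limited to Kifc2 and Kif21b, or 4.08% of the tested motor genes, while 8.27% of all tested genes reached that size.

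**Figure D2:**
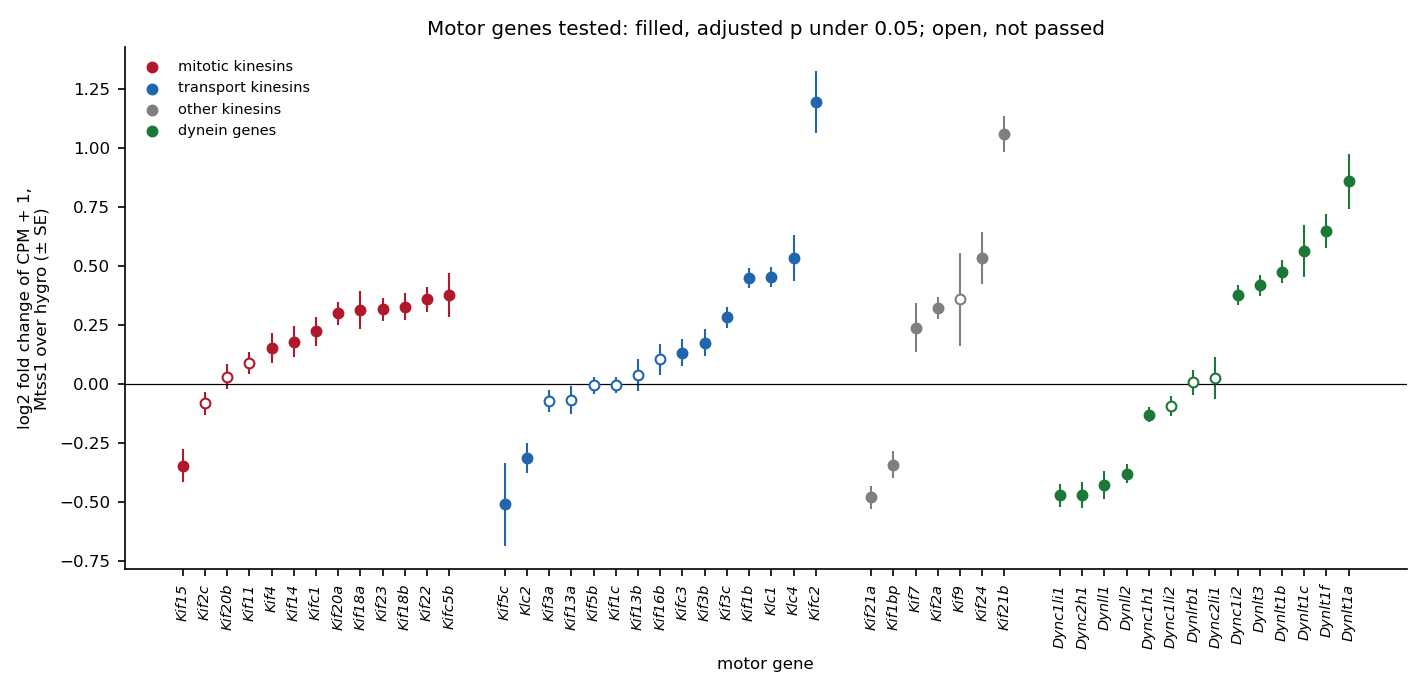
Log2 fold change (Mtss1 over hygro, on log2(CPM + 1)) with its SE for the 49 motor genes tested, in 4 role groups; filled points passed the limma test at an adjusted p under 0.05. Among mitotic kinesins 9 points are filled above 0 and 1 below it, and the dynein genes run from -0.47 for Dync1li1 to 0.86 for Dynlt1a.

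Mitotic kinesins were largely higher in cells overexpressing Mtss1. Of 13 tested, 9 rose (69.2%, beside 31.9% of all tested genes), 1 fell (7.69%, beside 34.2%) and 3 did not pass. Their median log2 fold change was 0.22. Their summed CPM was 935 and 938 in the Mtss1 libraries, against 798 and 852 in the hygro libraries, a ratio of means of 1.14. The summed values do not overlap between the groups, and the hygro libraries differ from each other more than the Mtss1 libraries do.

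Kif20a, a kinesin that carries the chromosomal passenger complex to the central spindle, had the highest CPM of the mitotic group. It measured 172 and 179 CPM in the Mtss1 libraries, against 134 and 152 CPM in the hygro libraries. The log2 fold change of Kif20a was 0.30 ± 0.05 (SE, limma adjusted p = 1.1e-05). Exons of Kif20a overlap those of Cdc23 on the opposite strand over 29.3% of their length. Cdc23 measured 95.8 and 97.6 CPM in the Mtss1 libraries, against 83.4 and 82.6 CPM in the hygro libraries, and the sources used here do not say whether the counting used strand. Kif23, the centralspindlin motor needed for cytokinesis, measured 97.0 and 103 CPM in the Mtss1 libraries, against 77.9 and 82.4 CPM in the hygro libraries. Its log2 fold change was 0.32 ± 0.05 (limma adjusted p = 6.5e-06). Kif14, which acts with citron kinase in cytokinesis, rose by 0.18 ± 0.07 on the log2 scale, and Kif20b, another cytokinesis kinesin, did not pass (0.03 ± 0.05).

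Kif22, a chromokinesin that pushes chromosome arms away from the poles, measured 73.7 and 69.7 CPM in the Mtss1 libraries, against 54.9 and 56.5 CPM in the hygro libraries (log2 fold change 0.36 ± 0.05, limma adjusted p = 4.1e-06). Both of its Mtss1 values lie above both hygro values. Kif18b, which limits the growth of astral microtubules, had 82.9 and 75.6 CPM in the Mtss1 libraries and 59.9 and 66.2 CPM in the hygro libraries (0.33 ± 0.06, limma adjusted p = 3.4e-05). Kif18a, which dampens chromosome movements at the metaphase plate, had 28.2 and 28.7 CPM in the Mtss1 libraries and 21.9 and 23.6 CPM in the hygro libraries (0.31 ± 0.08, limma adjusted p = 0.0017). The chromokinesin Kif4 was higher by 0.15 ± 0.06 (limma adjusted p = 0.044); Kif4 shares 15.1% of its exon length with Pdzd11 on the opposite strand, which was higher by 0.30 ± 0.07. Kif2c, a microtubule depolymerase of centromeres, did not pass (-0.08 ± 0.05).

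Motors that set spindle length differed among themselves. Kif15, which can stand in for Kif11 in keeping the spindle bipolar, was the 1 mitotic kinesin that fell. It measured 29.4 and 30.8 CPM in the Mtss1 libraries, against 38.5 and 38.7 CPM in the hygro libraries (log2 fold change -0.35 ± 0.07, limma adjusted p = 0.00013). Kif11, the tetrameric motor that slides spindle poles apart, had 105 and 99.6 CPM in the Mtss1 libraries and 95.5 and 97.1 CPM in the hygro libraries, and did not pass (0.09 ± 0.05, limma adjusted p = 0.095). With library-size scaling Kif11 passed (0.13, limma adjusted p = 0.021), and without Mtss1 2 its log2 fold change was 0.13. Kifc1, a minus-end motor that crosslinks spindle microtubules, rose by 0.22 ± 0.06 and its close copy Kifc5b by 0.37 ± 0.09. Their transcripts share 7.35% of the 150-base windows of Kifc1, so reads may have been divided between them, and the 2 genes summed had a log2 fold change of 0.26 (limma adjusted p = 0.00032).

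Several of the mitotic calls were lost with 1 library left out. Such a fit leaves 1 library in a group, so a lost call need not come from the library removed. The log2 fold change of Kif4 was 0.10 without Mtss1 2 and 0.08 without hygro 1, against 0.15 with all 4 libraries. For Kif14 it was 0.10 without Mtss1 2 and 0.17 without hygro 1, against 0.18. For Kifc1 it was 0.12 without Mtss1 1, against 0.22. Markers of proliferation moved in both directions beside the mitotic kinesins. Mki67 measured 417 and 431 CPM in the Mtss1 libraries, against 295 and 332 CPM in the hygro libraries, and Mcm2 measured 164 and 171 CPM in the Mtss1 libraries, against 282 and 294 CPM in the hygro libraries. Of the 6 proliferation markers listed, 3 rose (Mki67, Top2a and Cdk1), 2 fell (Mcm2 and Pcna) and Ccnb1 did not pass. In bulk RNA, more cells in mitosis and more RNA per mitotic cell cannot be told apart.

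Levels per length set Kif20a apart within the mitotic group. Divided by exon length, it stood at 40.5 ± 1.14 CPM per kb in the Mtss1 libraries and 32.9 ± 2.89 CPM per kb in the hygro libraries (SD, n = 2 each). Kif18b and Kifc1 followed, with 22.2 ± 1.45 and 22.2 ± 2.22 CPM per kb in the Mtss1 libraries, against 17.7 ± 1.25 and 19.0 ± 1.26 CPM per kb in the hygro libraries; they do not differ from each other beyond their spread, and in the hygro libraries Kif2c (17.5 ± 0.43 CPM per kb) lay within the spread of Kif18b. Exon lengths join all annotated transcripts, and orders between genes depend on them. At the low end, Kif15 and Kif18a changed places on those lengths. Kif15 stood at 2.73 ± 0.09 CPM per kb in the Mtss1 libraries and 3.50 ± 0.01 CPM per kb in the hygro libraries, and Kif18a at 2.89 ± 0.04 CPM per kb in the Mtss1 libraries and 2.31 ± 0.12 CPM per kb in the hygro libraries. Kif2b, a kinesin-13 described in mitosis, was at 0 in all 4 libraries.

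Transport kinesins and light chains differed widely among themselves, with log2 fold changes from -0.51 for Kif5c to 1.19 for Kifc2. Of 15 tested, 7 rose (46.7%, beside 31.9% of all tested genes), 2 fell (13.3%, beside 34.2%) and 6 did not pass. Their median log2 fold change was 0.10, against 0.22 for the mitotic kinesins. The difference between these medians has no test, since the genes of a list are not replicates. Over 14 alternative settings the transport median ran from 0.04 to 0.14 and the mitotic median from 0.17 to 0.29.

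The main cargo motors by level were among the 6 that did not pass. Kif5b, the ubiquitous kinesin-1 heavy chain (chromosome 18, 6201002 to 6242174, mm10), measured 249 and 245 CPM in the Mtss1 libraries, against 245 and 251 CPM in the hygro libraries. Kif1c, a kinesin-3 motor of vesicles and podosomes, had 281 CPM in both Mtss1 libraries and 278 and 286 CPM in the hygro libraries. The values of both genes overlap between the groups, with log2 fold changes of -0.01 ± 0.04 for each; on library-size scaling these were 0.03 for each. Kif5c, a kinesin-1 heavy chain that is abundant in neurons, was low throughout. It measured 1.64 and 1.96 CPM in the Mtss1 libraries, against 3.33 and 2.67 CPM in the hygro libraries, a log2 fold change of -0.51 ± 0.18 (limma adjusted p = 0.014). The log2 fold change of Kif5c was -0.43 without Mtss1 1 and -0.39 without hygro 1. Without a filter on low values Kif5c did not pass (limma adjusted p = 0.084). Klc2, the other transport gene that fell, kept its call under all 14 alternatives.

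Kinesin-1 light chains, which link the heavy chains to cargo, moved apart. Klc1 (chromosome 12, 111758849 to 111807844) measured 175 and 165 CPM in the Mtss1 libraries, against 123 and 125 CPM in the hygro libraries. Its log2 fold change was 0.45 ± 0.04 (limma adjusted p = 2.5e-09). Klc4 had 21.0 and 19.3 CPM in the Mtss1 libraries and 13.3 and 14 CPM in the hygro libraries, with a log2 fold change of 0.53 ± 0.10 (limma adjusted p = 5.3e-05). Klc2 fell, with 46.2 and 43.0 CPM in the Mtss1 libraries, against 58.0 and 53.5 CPM in the hygro libraries (-0.32 ± 0.06, limma adjusted p = 0.00011). For each of these 3 genes the groups of libraries did not overlap. Per length, Klc1 made up 68.3 ± 0.38% of the light chains in the Mtss1 libraries and 61.1 ± 1.06% in the hygro libraries, and Klc2 17.6 ± 0.10% in the Mtss1 libraries and 27.0 ± 1.32% in the hygro libraries (SD, n = 2 each). Klc1 also stood first of the transport group per length in the Mtss1 libraries (41.8 ± 1.67 CPM per kb, against 38.6 ± 0.05 for Kif1c and 31.0 ± 0.42 for Kif5b there). In the hygro libraries it lay just under Kif5b (30.4 ± 0.26 and 31.1 ± 0.54 CPM per kb) and further under Kif1c (38.8 ± 0.80).

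Kinesin-2 motors carry cargo in the cytoplasm and drive outward transport in cilia. Kif3c measured 112 and 115 CPM in the Mtss1 libraries, against 92.2 and 93.9 CPM in the hygro libraries (log2 fold change 0.28 ± 0.04, limma adjusted p = 7.5e-06). Of its exon length, 35.3% overlaps 1110002L01Rik on the opposite strand, which measured 8.70 and 12.3 CPM in the Mtss1 libraries, against 42.1 and 39.2 CPM in the hygro libraries. Kif3b, the partner of Kif3a in the ciliary motor, rose by 0.17 ± 0.06 (limma adjusted p = 0.0096) and did not pass without Mtss1 2 (0.12, limma adjusted p = 0.11). Kif3a had 89.4 and 87.2 CPM in the Mtss1 libraries and 93.8 and 92.1 CPM in the hygro libraries, and did not pass (-0.07 ± 0.05, limma adjusted p = 0.17). Kif17, a homodimeric motor of the same family, lay under the filter at 14 and 13 reads in the Mtss1 libraries, against 2 and 1 reads in the hygro libraries. Its depth-scaled ratio was 11.6, with an exact 95% interval of 3.57 to 59.8 that covers counting error only. Fitted without the filter, Kif17 had a limma adjusted p of 0.0016. Its exons share 74 bases (1.62% of their length) with Sh2d5 on the same strand. Sh2d5 measured 16.6 and 14.9 CPM in the Mtss1 libraries, against 9.60 and 10.4 CPM in the hygro libraries.

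Among kinesin-3 motors, which carry vesicles and endosomes, Kif1b was the 1 of 5 tested that rose. Kif1b, which moves synaptic vesicle precursors and mitochondria, measured 166 and 179.8 CPM in the Mtss1 libraries, against 129 and 124 CPM in the hygro libraries (log2 fold change 0.45 ± 0.04, limma adjusted p = 6.5e-09). Kif13a, Kif13b and the endosomal motor Kif16b had log2 fold changes between -0.07 and 0.10 and did not pass. Kif1a, a motor of neuronal vesicles, had 1 read in Mtss1 1 and none in the other libraries, where a count of 0 allows up to 0.138 to 0.179 CPM.

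Kifc2, a minus-end directed kinesin described in neurons, showed the largest rise among the tested motor genes on the log2(CPM + 1) scale. It measured 11.6 and 10.7 CPM in the Mtss1 libraries, against 4.51 and 4.10 CPM in the hygro libraries, or 11.1 ± 0.67 and 4.30 ± 0.29 CPM (SD, n = 2 each). The log2 fold change was 1.19 ± 0.13 (limma adjusted p = 5.1e-08), and the lowest Mtss1 value is more than double the highest hygro value. Kifc2 lies on chromosome 15 from 76659858 to 76668196 (mm10), and 4.15% of its exon length overlaps Cyhr1 on the opposite strand. Cyhr1 measured 130.2 and 129 CPM in the Mtss1 libraries, against 108 and 105 CPM in the hygro libraries. Whether reads of Cyhr1 were counted for Kifc2 was not tested. With a pseudocount of 5 the log2 fold change of Kifc2 was 0.79, below the 0.93 of Kif21b. Kifc3, a minus-end motor found at adherens junctions, was the more abundant of the pair, at 60.3 and 58.9 CPM in the Mtss1 libraries, against 52.5 and 56.1 CPM in the hygro libraries (0.13 ± 0.06, limma adjusted p = 0.043). It did not pass without Mtss1 1 (0.12, limma adjusted p = 0.15), without Mtss1 2 (0.15, 0.064) or without hygro 1 (0.08, 0.33).

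**Figure D3:**
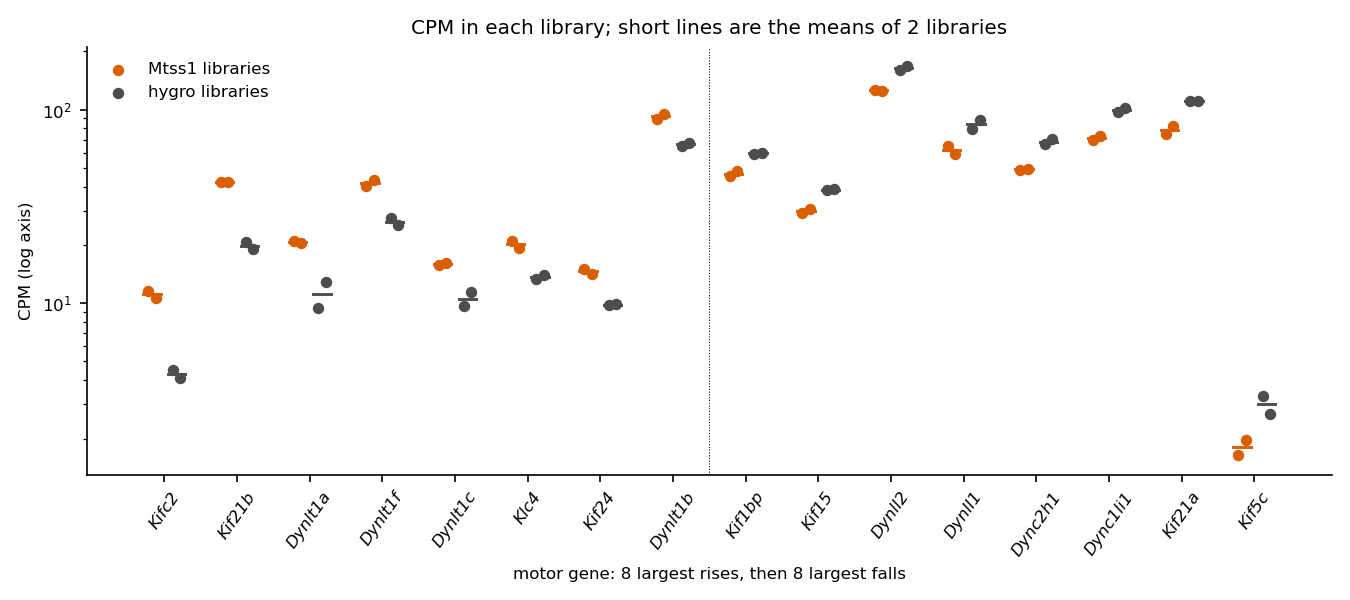
CPM on a log axis in each library for the 8 motor genes with the largest rise and the 8 with the largest fall; orange points are the Mtss1 libraries, grey points the hygro libraries and short lines the means of 2. Kifc2 and Kif21b show the widest gaps, and Kif5c lies lowest.

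The remaining kinesins regulate microtubule ends, centrioles and cilia or have no settled transport role. Among 7 tested, 4 rose (57.1%, beside 31.9% of all tested genes) and 2 fell (28.6%, beside 34.2%). Kif9, a kinesin of motile cilia, did not pass. The kinesin-4 pair Kif21a and Kif21b, which restrain microtubule growth, went in opposite directions. Kif21b (chromosome 1, 136131389 to 136177998) measured 42.2 and 42.4 CPM in the Mtss1 libraries, against 20.6 and 19.1 CPM in the hygro libraries, a log2 fold change of 1.06 ± 0.08 (limma adjusted p = 3.5e-11). Kif21a (chromosome 15, 90933276 to 91049948) measured 75.1 and 82.6 CPM in the Mtss1 libraries, against 111 and 110.1 CPM in the hygro libraries, a log2 fold change of -0.48 ± 0.05 (limma adjusted p = 1.5e-08). Per length, Kif21b made up 22.2 ± 1.13% of the pair in the Mtss1 libraries and 8.71 ± 0.41% in the hygro libraries (SD, n = 2 each). Kif21a remained the more abundant per length in all 4 libraries.

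Kif24, which holds back the growth of cilia from the mother centriole, measured 15.1 and 14.2 CPM in the Mtss1 libraries, against 9.80 and 9.85 CPM in the hygro libraries (log2 fold change 0.53 ± 0.11, limma adjusted p = 0.0002). Kif2a, a depolymerase of spindle poles and of neurites, rose by 0.32 ± 0.05. It was counted with these other kinesins and not with the mitotic ones, and the counts of both groups depend on that choice. Of the exon length of Kif2a, 19.2% overlaps Dimt1 on the opposite strand, which did not pass the test (-0.13 ± 0.09). Kif7, a regulator of Hedgehog signalling at the ciliary tip, was higher by 0.24 ± 0.10 (limma adjusted p = 0.049). It did not pass without Mtss1 2 (0.15, limma adjusted p = 0.29) or without hygro 2 (0.14, 0.35). Kif1bp, whose product binds several kinesins and blocks their motor domains, fell to 45.4 and 48.0 CPM in the Mtss1 libraries, against 59.1 and 60.0 CPM in the hygro libraries (-0.34 ± 0.06, limma adjusted p = 1.6e-05).

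Genes used as neuronal markers were examined because Kifc2, Kif21b, Kif5c and Kif1a are best known in neurons. Their summed level was 65.2 and 69.0 CPM in the Mtss1 libraries, against 16.0 and 16.4 CPM in the hygro libraries. Nearly all of it came from Map2, a microtubule-associated protein of dendrites, with 59.4 and 63.3 CPM in the Mtss1 libraries, against 14.9 and 15.3 CPM in the hygro libraries. Of the 9 markers only Map2 and Syt1 passed the filter. Map2 rose, and Syt1, which passed only through the Mtss1 libraries, had 5.61 and 5.71 CPM in the Mtss1 libraries, against 0.735 and 0.966 CPM in the hygro libraries. Rbfox3, Snap25 and Elavl4 were at 0 in all 4 libraries, and no other marker exceeded 0.252 CPM. The part of this change in the results for Kifc2 and Kif21b was not tested.

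Of 14 dynein genes tested, 6 were higher (42.9%, beside 31.9% of all tested genes), 5 were lower (35.7%, beside 34.2%) and 3 did not pass, so the share that fell was near that of the whole table. Their median log2 fold change was 0.02, and it was -0.09 when the 4 near-identical Dynlt1 genes were counted as 1. Dync1h1, the heavy chain that holds the motor domain of cytoplasmic dynein, was the most abundant motor gene by CPM. It measured 991 and 1004 CPM in the Mtss1 libraries, against 1068 and 1117 CPM in the hygro libraries (log2 fold change -0.13 ± 0.03, limma adjusted p = 0.0016). Of the other core subunits, the intermediate chain Dync1i2, which contacts dynactin, rose to 147 and 149 CPM in the Mtss1 libraries, against 112 and 116 CPM in the hygro libraries (0.37 ± 0.04, limma adjusted p = 5.8e-08).

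The light intermediate chains tether cargo adaptors to dynein. Dync1li1 measured 70.0 and 73.0 CPM in the Mtss1 libraries, against 97.2 and 102 CPM in the hygro libraries, and fell by 0.47 ± 0.05 on the log2 scale (limma adjusted p = 1.4e-08). Its paralog Dync1li2 had 167 and 171 CPM in the Mtss1 libraries and 189 and 173 CPM in the hygro libraries and did not pass (-0.09 ± 0.04, limma adjusted p = 0.059). It passed without hygro 2 (-0.15, limma adjusted p = 0.0056). Per length, Dync1li1 made up 39.7 ± 0.29% of the pair in the Mtss1 libraries and 46.2 ± 2.37% in the hygro libraries (SD, n = 2 each), and the groups did not overlap. Dync1i1, the intermediate chain gene best known in neurons, was at 0 in all 4 libraries.

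Light chains split by family. The LC8 genes Dynll1 and Dynll2, whose products also bind many proteins outside dynein, fell together. Dynll1 measured 65.2 and 59.0 CPM in the Mtss1 libraries, against 79.5 and 88.4 CPM in the hygro libraries (log2 fold change -0.43 ± 0.06, limma adjusted p = 1.1e-06). Dynll2 measured 126 and 125 CPM in the Mtss1 libraries, against 161 and 167 CPM in the hygro libraries (-0.38 ± 0.04, limma adjusted p = 2.3e-08). Per length, the Dynll1 share of the pair was 25.8 ± 1.20% in the Mtss1 libraries and 26.5 ± 1.03% in the hygro libraries, values that overlap. The exon length used for Dynll1 (3.89 kb) joins all annotated transcripts and covers its whole gene span. Its share of the pair may therefore be understated in both groups. The roadblock gene Dynlrb1 had 59.1 and 61.7 CPM in the Mtss1 libraries and 59.7 and 60.6 CPM in the hygro libraries (0.00 ± 0.05).

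Tctex-type light chains all rose. Dynlt3, on the X chromosome, measured 114 and 122 CPM in the Mtss1 libraries, against 89.5 and 86.8 CPM in the hygro libraries (log2 fold change 0.42 ± 0.05, limma adjusted p = 5.4e-08). The 4 Dynlt1 genes lie close together on chromosome 17 and share much of their sequence: between 36.8% and 80.5% of the 150-base windows of each gene's transcripts recur in another of the 4. Reads could have been divided among them, so their sum is the firmer value. Summed, they measured 167 and 175 CPM in the Mtss1 libraries, against 112 and 116 CPM in the hygro libraries, a log2 fold change of 0.58 (limma adjusted p = 5.9e-11). Taken singly, the log2 fold changes were 0.86 ± 0.12 for Dynlt1a, 0.65 ± 0.07 for Dynlt1f, 0.56 ± 0.11 for Dynlt1c and 0.48 ± 0.05 for Dynlt1b, with limma adjusted p-values of 0.00012 or lower. Dynlt1b gave most of the sum, with 89.6 and 95.1 CPM in the Mtss1 libraries, against 65.2 and 67.1 CPM in the hygro libraries. Dynlt1a, with 20.9 and 20.5 CPM in the Mtss1 libraries and 9.45 and 12.8 CPM in the hygro libraries, overlaps Tmem181a on the opposite strand over 13.6% of its exon length, and that gene was lower by 0.69 ± 0.06 on the log2 scale.

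Dynein-2 carries trains back down the cilium. Its heavy chain Dync2h1 (chromosome 9, 6928503 to 7184446) measured 48.9 and 49.2 CPM in the Mtss1 libraries, against 66.1 and 70.7 CPM in the hygro libraries, a log2 fold change of -0.47 ± 0.06 (limma adjusted p = 1.3e-07). The light intermediate chain Dync2li1 had 19.4 and 18.9 CPM in the Mtss1 libraries and 18.9 and 18.7 CPM in the hygro libraries and did not pass (0.02 ± 0.09). In a list of genes for intraflagellar transport trains and for further dynein-2 subunits, 13 of 25 fell (52.0%, beside 34.2% of all tested genes). Another 5 rose, beside 31.9% of all tested genes, while 7 did not pass, and the median was -0.18. The 3 dynein-2 subunits of the list were Wdr34 (log2 fold change -0.25 ± 0.08) and Wdr60 (-0.20 ± 0.06), which fell, and Tctex1d2 (0.70 ± 0.11), which rose. Among the other 22 genes, 11 fell and 4 rose. One of these 4, Ttc30b, passed the filter only through the Mtss1 libraries, at 1.01 and 1.73 CPM in the Mtss1 libraries, against 0 and 0.046 CPM in the hygro libraries. Ift74 (-0.90 ± 0.07) and Ift27 (-0.73 ± 0.09) had the largest falls of the list.

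**Figure D4:**
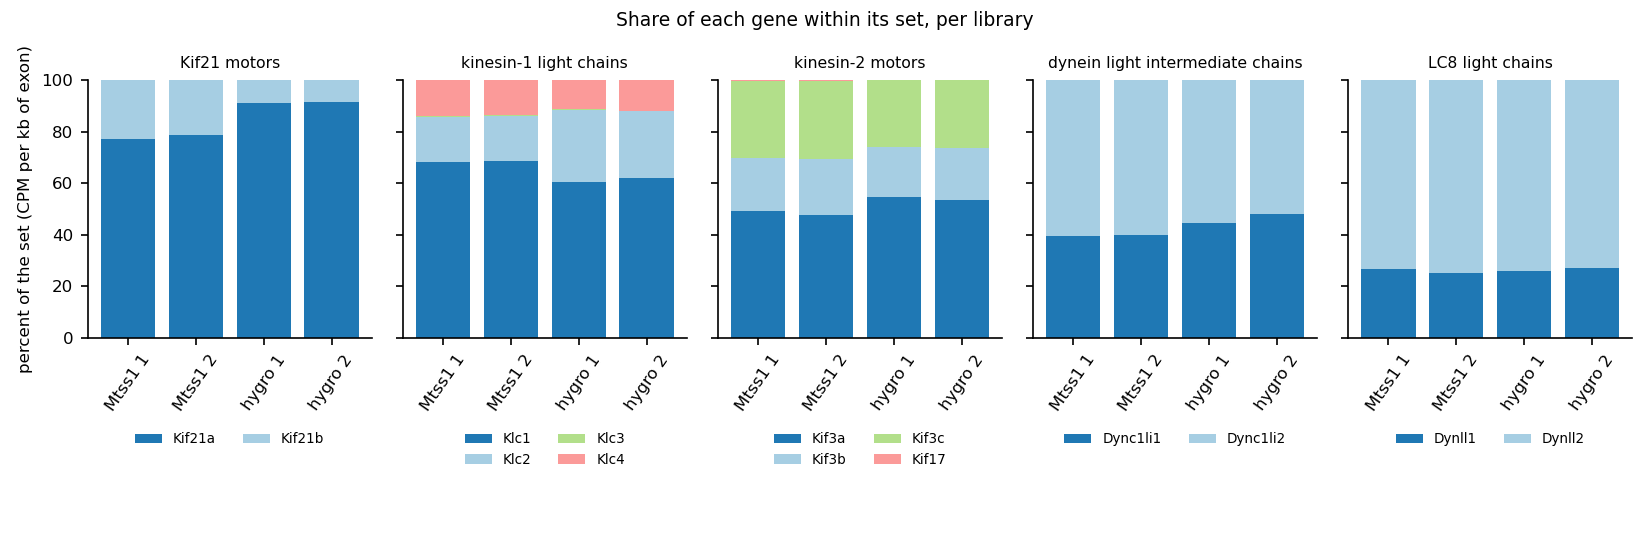
Share of each gene within its set, as percent of CPM per kb of exon, in each library. Exons of all annotated transcripts were joined, and the Mtss1 libraries lie to the left of the hygro libraries. Kif21b takes 22.2% of its pair in the Mtss1 libraries and 8.71% in the hygro libraries, while the split between Dynll1 and Dynll2 overlaps between the groups.

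Partners of the motors were counted in the same fit. Among 20 spindle and midzone partners, 15 rose (75.0%, beside 31.9% of all tested genes) and 3 fell (15.0%, beside 34.2%). The other 2 were short of the threshold, and the median log2 fold change was 0.36. The largest changes were in Prc1, the midzone bundler that recruits Kif4 (0.68 ± 0.04), Cdca8, a subunit of the passenger complex (0.57 ± 0.05), and the spindle protein gene Ckap2 (0.53 ± 0.05). Among 16 genes for dynactin, LIS1 and associated proteins, 12 rose (75.0%) and 2 fell (12.5%). Another 2 were short of the threshold, and the median was 0.20. Nde1, which links LIS1 to dynein, rose by 0.37 ± 0.05, the dynactin filament gene Actr1a by 0.36 ± 0.04 and the capping protein gene Capza2 by 0.33 ± 0.04.

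The adaptor genes called were mostly higher for dynein and went both ways for kinesin cargo. Among 9 dynein activating adaptors, 4 rose (44.4%, beside 31.9% of all tested genes) and 1 fell (11.1%, beside 34.2%). Their median log2 fold change was 0.15, and it was 0.09 both without Mtss1 1 and without hygro 1. Without a filter on low values, 2 of these adaptors rose and 1 fell. Ninl (0.37 ± 0.09) and Rab11fip3 (0.23 ± 0.06) were higher and Hook3 (-0.32 ± 0.05) lower on the log2 scale. Among 13 kinesin cargo adaptors, 4 rose (30.8%) and 5 fell (38.5%), near the shares of all tested genes, and the median was 0.04. Fez2, a kinesin-1 adaptor of the fasciculation and elongation family, measured 107 and 111 CPM in the Mtss1 libraries, against 49.1 and 50.6 CPM in the hygro libraries (log2 fold change 1.11 ± 0.05). The kinesin-1 scaffold genes Mapk8ip3 (0.70 ± 0.04) and Mapk8ip1 (0.68 ± 0.10) rose as well. Every spindle, dynactin and adaptor gene named with its change had a limma adjusted p of 0.0013 or lower. In the list for intraflagellar transport, Wdr34 had a limma adjusted p of 0.011 and Wdr60 of 0.0061.

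**Figure D5:**
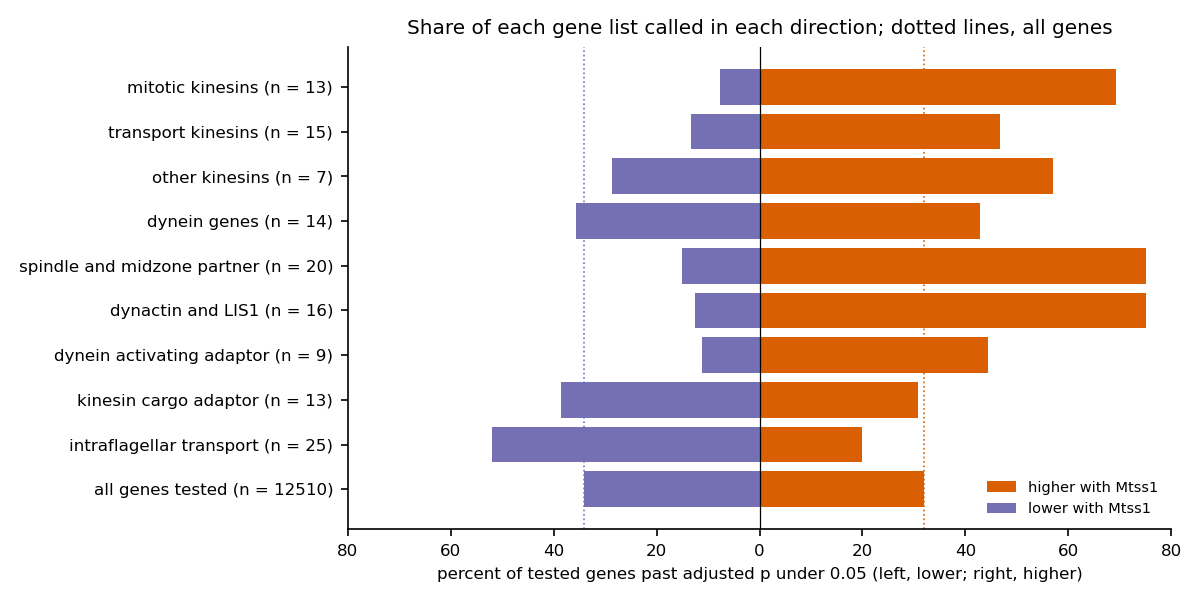
Percent of tested genes called higher (orange, right) and lower (purple, left) with Mtss1 in each list of motor genes and partners, with all tested genes in the bottom row and as dotted lines. Mitotic kinesins (69.2% higher, 7.69% lower) and spindle partners (75.0% higher, 15.0% lower) lie above the 31.9% higher of all genes, and intraflagellar transport genes lie above the 34.2% lower.

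Of the 62 motor genes, 13 lay under the filter. Dync1i1, Kif2b, Kif12 and Kif19a were at 0 in all 4 libraries, and Dynlrb2, Kif26a and Kif1a had a single read among the 4. Kif6 had 2 reads, both in Mtss1 1. Kif26b had 1 and 4 reads in the Mtss1 libraries and 3 and 0 in the hygro libraries, and Kif27, a relative of Kif7, had 8 and 7 reads in the Mtss1 libraries and 0 and 5 in the hygro libraries. Kif5a, the third kinesin-1 heavy chain, had 4 and 2 reads in the Mtss1 libraries and 11 and 3 in the hygro libraries. Klc3 had 8 and 4 reads in the Mtss1 libraries and 16 and 6 in the hygro libraries, and 28.1% of its exon length overlaps Ercc2. Their ratios of Mtss1 over hygro reads, scaled for depth, were 2.15 for Kif26b (exact 95% interval 0.418 to 13.8), 3.87 for Kif27 (1.34 to 13.6), 0.553 for Kif5a (0.174 to 1.53) and 0.704 for Klc3 (0.317 to 1.48).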

How the data were processed

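RNA from 4 Py8119 libraries (2 with Mtss1 overexpression, 2 hygro controls) was sequenced, and the authors deposited 1 table of CPM, a unit read from the values. STAR, RSEM, FastQC 0.11.2 and the build mm10 are named in the submitters' processing notes; the sources used here do not give the scaling step. Column sums ran from 982877 to 1016225. Values fell in steps of 1 read, whole within 0.005 read for 79.6% to 80.5% of nonzero entries, from which read totals were recovered; intervals cover counting error only. Genes that reached 1 CPM in 2 or more libraries were fitted with limma 3.58.1 in R 4.3.3 on log2(CPM + 1), which understates changes of low genes, with Benjamini-Hochberg adjustment over all 12510. Residual degrees of freedom were 2 and the prior added 20. The fit was tested on simulated data. Exon lengths and overlaps came from GENCODE M21 (same build). Each exon length joins the exons of all annotated transcripts, so levels and shares per length compare genes only roughly.

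The members, role lists and partner lists were chosen with earlier results of these data known. Full values go to the 8 members with the largest rise and the 8 with the largest fall among called members without overlap, and to the member with the highest CPM of each role; values of other members were chosen after they were seen. Of each partner list, the 3 largest called changes are named, and the dynein-2 subunits were added after their values were seen. Alternatives were other pseudocounts, filters, scalings, thresholds, limma-voom on recovered counts, the replicate block, each library left out, and, chosen after seeing the data, near-identical copies summed.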

Additional observations from a re-analysis of the deposited data

How the results depend on the processing

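Under 14 alternatives, 29 of the 36 called motor genes kept their direction and their call wherever they were tested, and none of the 36 reversed. The exceptions were Kif3b, Kif4, Kif5c, Kif7, Kif14, Kifc1 and Kifc3. Without a filter on low values, Kif4 (limma adjusted p = 0.13), Kif5c (0.084), Kif7 (0.15), Kif14 (0.083), Kifc1 (0.078) and Kifc3 (0.084) did not pass; more genes are then tested. Transport kinesins that fell numbered 1 without a filter and 1 at an adjusted p under 0.01, against 2 as reported, and between 1 and 2 with single libraries left out. With near-identical copies summed, 22 motor genes rose rather than 26. Of the dynein genes, 3 then rose rather than 6, since 4 genes became 1. Signs reversed for 5 genes that had not passed: Kif5b was 0.03 with library-size and 0.006 with median-of-ratios scaling, and -0.025 to 0.010 with single libraries left out; Kif1c was 0.032 with library-size and 0.007 with median-of-ratios scaling, and -0.027 to 0.015 with libraries left out. With libraries left out, Kif13a ran from -0.153 to 0.016, Kif20b from -0.032 to 0.091 and Dynlrb1 from -0.026 to 0.035. Over the whole table, 3317 to 3634 genes rose and 3621 to 3971 fell with 1 library left out. Library-size scaling moved the split of all genes to 4362 higher and 3888 lower, and the motor genes to 27 and 10. The replicate numbers are labels with no stated pairing, and deviations of same-numbered libraries had a correlation of -0.02 across genes. With the replicate block, 26 motor genes rose and 11 fell (Dync1li2 passed, limma adjusted p = 0.043), and 4040 and 4337 of all genes. Depth limits the genes under the filter, where 3 reads were worth 0.138 to 0.189 CPM.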
